A study of Mus musculus with 4 samples.

Results

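The costimulatory and coinhibitory ligand genes examined here were Cd80, Cd86, Cd40, Cd83, Icosl, Cd274, Pdcd1lg2, Tnfsf4, Tnfsf9 and Cd70, which are 10 of 22367 protein-coding genes on the chromosomes analysed. They were listed by name for their place in T cell costimulation, with earlier results of these data known, among them that Cd83 lies near one of the widest peaks. A Runx3 peak was assigned to a gene when its centre lay in the gene body or within 50 kb of it, on mm9 with GENCODE M1 gene models. This rule gave 40 distinct peaks of the 15121 in the deposited list. The windows of adjacent genes overlap, so 5 of these peaks fell in the windows of 2 of the genes and the 10 genes held 45 pairs of a gene and a peak.

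Runx3 ChIP-seq was performed on splenic CD11chiMHCII+CD4+ dendritic cells (DC) of WT C57BL/6 mice, sorted by FACS from about 15 mice. The strain of the second input sample is written C57BL/7 in its label. The 2 Runx3_IP samples were precipitated with an in-house polyclonal anti-Runx3 antibody, and the 2 input samples were whole cell extract of the same kind of cells. The labels give no treatment for any sample, and no Runx3-deficient sample or other DC subset was part of this experiment. The authors made 1 peak call on both Runx3_IP samples against both input samples. No peak carries a value per replicate or per sample, so no spread between replicates and no test can be given, and all values below are descriptions of a single list. Depth per sample is unknown from the file. A gene without a peak is therefore one at which none was called. A peak list holds no expression level, so the labelled cell type could not be checked against its markers.

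T cells need a signal through CD28 beside the signal of the T cell receptor, and DC supply it with CD80 and CD86, which rise on the cell surface when DC mature. Other surface molecules of DC tune the same encounter, some through ICOS or receptors of the TNF receptor family and some, such as the PD-1 ligands, by restraining the T cell. Runx3 belongs to the RUNX family of transcription factors, which bind the hexamer TGTGGT and its variant TGCGGT, and NF-kB factors are known as inducers of several costimulatory genes in maturing DC.

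Peaks that carry the pattern described below were printed from the mm9 plus strand, 5′ to 3′. The first 5 sequences surround the RUNX hexamer nearest to the peak centre. They come from peaks in the windows of Cd86, Cd80, Cd83, the adjacent Cd274 and Pdcd1lg2, and the pair Tnfsf9 and Cd70. Capitals mark TGTGGT or TGCGGT or their reverse complements ACCACA and ACCGCA.
Cd86, chr16:36588135-36588254: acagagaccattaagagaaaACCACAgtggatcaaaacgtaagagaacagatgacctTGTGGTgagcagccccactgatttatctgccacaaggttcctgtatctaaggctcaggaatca
Cd80, chr16:38457269-38457388: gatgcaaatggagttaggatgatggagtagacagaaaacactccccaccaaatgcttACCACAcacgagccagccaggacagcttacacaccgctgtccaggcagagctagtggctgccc
Cd83, chr13:43874068-43874187: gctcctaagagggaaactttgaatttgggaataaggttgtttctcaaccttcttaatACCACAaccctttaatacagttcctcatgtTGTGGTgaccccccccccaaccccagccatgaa
Cd274 and Pdcd1lg2, chr19:29505571-29505690: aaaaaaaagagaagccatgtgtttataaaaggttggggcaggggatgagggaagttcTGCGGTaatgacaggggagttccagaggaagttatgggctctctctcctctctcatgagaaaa
Tnfsf9 and Cd70, chr17:57252629-57252748: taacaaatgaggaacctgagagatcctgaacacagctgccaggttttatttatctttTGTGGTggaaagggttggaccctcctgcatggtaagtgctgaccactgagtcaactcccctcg

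The next 3 sequences are shown because a RUNX hexamer and a match to the NF-kB consensus lie close together in them. They were picked for this spacing. In the other peaks with TGTGGT and an NF-kB match, the nearest pair lay from 115 bp (Cd86) to 355 bp (Cd40) apart. The share of all peaks that hold such a pair was not counted. Capitals mark both motifs, with overlapping NF-kB matches joined.
Icosl, chr10:77557715-77557834: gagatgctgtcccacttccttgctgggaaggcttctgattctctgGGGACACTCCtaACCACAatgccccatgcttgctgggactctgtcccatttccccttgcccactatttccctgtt
Tnfsf4, chr1:163281229-163281348: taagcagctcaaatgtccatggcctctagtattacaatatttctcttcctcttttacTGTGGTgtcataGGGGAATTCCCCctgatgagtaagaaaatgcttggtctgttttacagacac
Cd83, chr13:43870840-43870959: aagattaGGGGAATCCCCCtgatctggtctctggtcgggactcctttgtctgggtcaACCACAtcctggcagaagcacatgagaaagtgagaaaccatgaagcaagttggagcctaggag

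The last 5 sequences show NF-kB consensus matches, in capitals, in the peaks at the start of Cd40 and of Cd83, upstream of Cd80 and in introns of Cd274. A shorter stretch is given where the window met an exon.
Cd40, chr2:164880998-164881117: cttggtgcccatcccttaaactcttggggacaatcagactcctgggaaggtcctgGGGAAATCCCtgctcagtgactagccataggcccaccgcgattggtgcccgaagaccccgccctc
Cd83, chr13:43880495-43880524: ccggcgcgcgGGGAAGTCCCaagcgcgggt
Cd80, chr16:38457442-38457561: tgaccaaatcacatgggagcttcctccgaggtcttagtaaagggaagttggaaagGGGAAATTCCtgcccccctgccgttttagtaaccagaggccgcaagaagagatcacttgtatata
Cd274 intron 3, chr19:29449672-29449791: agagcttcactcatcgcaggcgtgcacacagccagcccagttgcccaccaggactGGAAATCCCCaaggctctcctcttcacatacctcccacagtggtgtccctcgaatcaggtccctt
Cd274 intron 5, chr19:29457995-29458114: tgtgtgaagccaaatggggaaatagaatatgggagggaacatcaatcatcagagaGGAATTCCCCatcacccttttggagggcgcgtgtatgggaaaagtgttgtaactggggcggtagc

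All 10 genes had at least 2 Runx3 peaks, from 2 at Cd40, Tnfsf4 and Cd70 to 8 at Cd83 and 9 at Pdcd1lg2. Of all protein-coding genes, 62.6% had at least 1 peak under the same rule and 44.3% had at least 2. The median was 4 peaks per window for the 10 genes and 1 for all protein-coding genes, at median window lengths of 119 kb and 115 kb. The joined windows of the 10 genes held 3.57 peaks per 100 kb, and those of all protein-coding genes held 0.850. Pdcd1lg2 and Cd83 stood at the upper end of the whole distribution, since 1.49% of protein-coding genes had as many peaks as Pdcd1lg2 and 2.52% as many as Cd83. Their windows were 160 kb and 118 kb long. The nearest start of a protein-coding gene was the gene's own for 3 of the 9 peaks of Pdcd1lg2 and for all 8 of Cd83. Cd40, Tnfsf4 and Cd70 stood near its middle, with 44.3% of genes reaching their count.

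**Figure D1:**
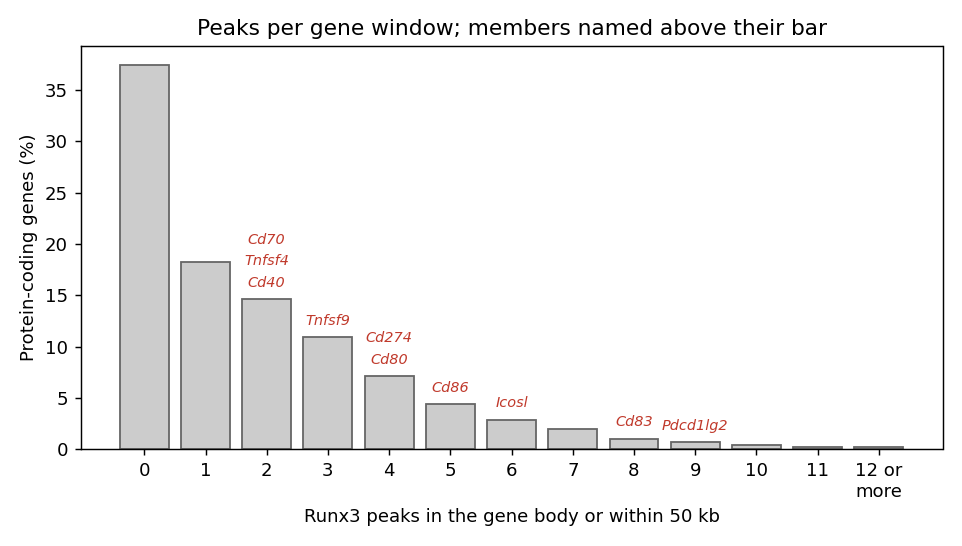
Distribution of the number of Runx3 peaks in the gene body or within 50 kb of it (horizontal axis) over 22367 protein-coding genes, as a percentage of genes (vertical axis), with the 10 genes named above the bar of their count. All 10 names stand at 2 peaks or more, with Pdcd1lg2 at 9 and Cd83 at 8.

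Each peak has a score written by MACS2. Its unit is not stated, so it served here only to rank peaks within the list. The median score was 17.7 for the 40 peaks, with quartiles at 9.16 and 29.8, and 12.1 for all peaks, with quartiles at 7.2 and 23.2. The median width was 492 bp at the 10 genes beside 406 bp in the list. The wide peak near Cd83 was known when that gene was listed, so these widths are a description only. Of the 40 peaks, 24 (60%) scored at or above the list median and 14 (35%) at or above the upper quartile, beside 25.4% of all peaks for the latter. A peak of the upper quartile was found at 9 of the 10 genes, all but Tnfsf4, and at 31% of protein-coding genes. Cd274 and Cd70 had 1 such peak each, shared with Pdcd1lg2 and Tnfsf9, respectively. At Cd274, Cd70, Cd40 and Tnfsf9 every such peak was nearest to the TSS of another gene.

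**Figure D2:**
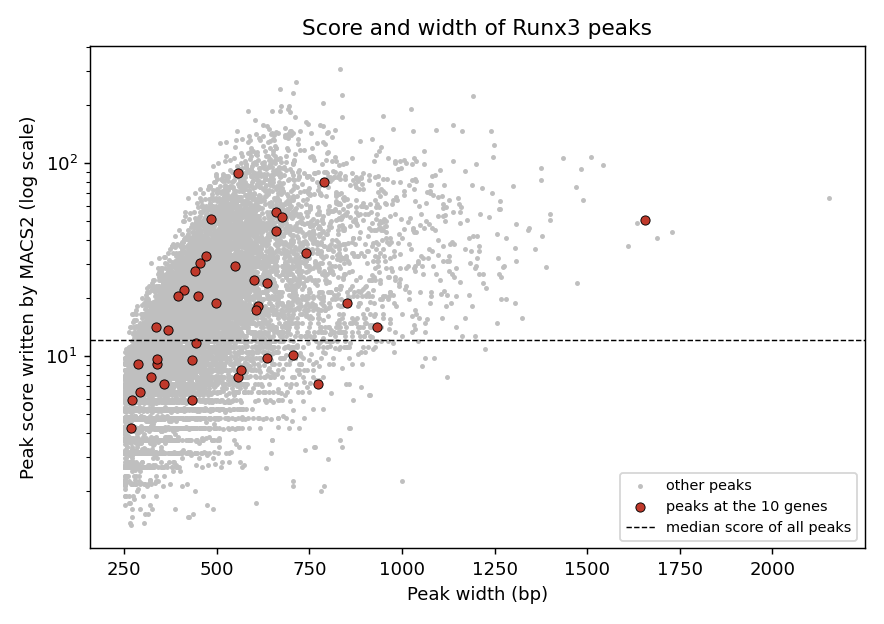
Score of each Runx3 peak on a log scale (vertical axis, unit not stated by the authors) against its width in bp (horizontal axis), with the 40 peaks at the 10 genes in red and all others in grey. The red points run from a score of 4.23 to 89.43, and 24 of 40 lie on or above the dashed line at the list median of 12.1, with 1 far to the right at 1656 bp.

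A smaller share of the peaks at the 10 genes lay near promoters than in the list as a whole, a difference that was not tested. A centre within 1 kb of a transcription start site (TSS) of any gene was found for 10 peaks (25%), beside 38.0% of all peaks, and 16 peaks (40%) were intergenic beside 29.2%. A further 12 lay in introns (30%, beside 30.6%) and 2 in exons. The median distance to a TSS was 7771 bp for the 40 peaks and 3703 bp for the list. Counted by gene, 3 of the 10, Cd86, Cd40 and Cd83, had a peak within 1 kb of a TSS of their own, which is near the 24.9% of protein-coding genes that had one. A peak centre in the gene body was found at 4 genes, Cd86, Cd83, Cd274 and Pdcd1lg2, where 23.2% of protein-coding genes had one.

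Several windows hold other genes, and position does not say which gene a bound region acts on. The nearest protein-coding TSS was that of 1 of the 10 genes for 25 of the 40 peaks, and that of another gene for 15, of which 7 lay within 1 kb of that other TSS. At 8 of the 10 genes the gene's own TSS was the nearest for at least 1 peak, where this held for 35.4% of protein-coding genes. The exceptions were Tnfsf9 and Cd70. Median scores were 14.2 for the 25 peaks and 20.6 for the 15.

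**Figure D3:**
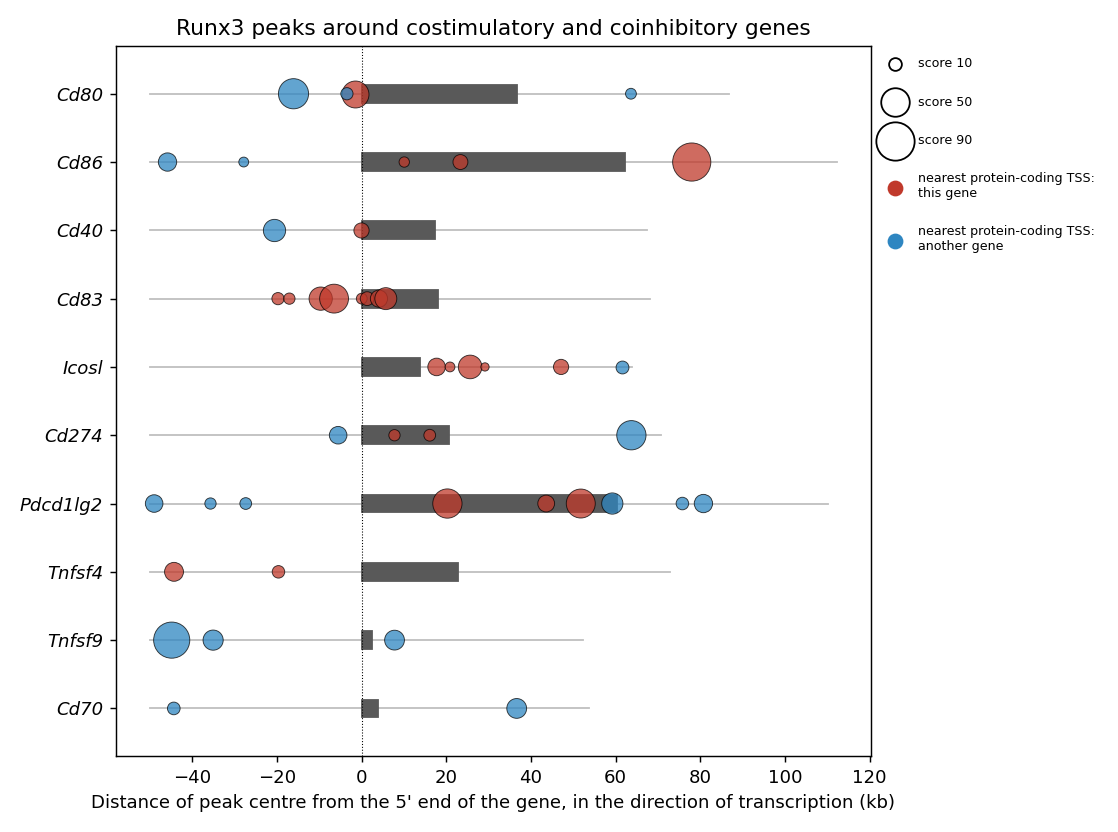
Position of every Runx3 peak centre in the 10 windows, in kb from the 5′ end of the gene in the direction of transcription (horizontal axis), with gene bodies as dark bars, windows as thin lines and circle area rising with peak score. Red circles are peaks whose nearest protein-coding TSS is that of the gene on the row and blue circles are nearest to another gene; all 8 circles of Cd83 and both of Tnfsf4 are red, and those of Tnfsf9 and Cd70 are all blue. A peak in 2 windows is drawn on both rows.

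Among the ligands of CD28 and CTLA4, Cd86 had the strongest peak of the 10 genes and Cd80 had a strong peak just upstream of its start. Cd86 (ENSMUSG00000022901.6, chr16:36603955-36666167, minus strand) encodes a ligand that resting DC already carry. Its peak at chr16:36587918-36588475 had a score of 89.43, which ranked 229 in the list. It was intergenic, 15759 bp beyond the 3′ end of the gene, and its nearest TSS was that of a short noncoding Cd86 transcript, 16409 bp away. This 558 bp peak held 3 TGTGGT hexamers, 1 of them 1 bp from its centre, as printed above. The window held 4 further peaks. One with a score of 13.63 lay 55 bp from the TSS of the short transcript Cd86-003 in intron 1, and another in intron 1 scored 6.57. The other 2, with scores of 5.96 and 20.62, lay upstream and nearest to the TSS of Ildr1, the former 40 bp from it. The strong binding in the Cd86 window was thus on the far side of the 3′ end, while no peak centre lay within 1 kb of the 5′ end of the gene.

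Cd80 (ENSMUSG00000075122.3, chr16:38459013-38495821, plus strand) encodes the ligand that binds CTLA4 most tightly. A peak at chr16:38457031-38457691 with a score of 44.61, rank 1338, was centred 1652 bp upstream of its TSS and held 2 TGTGGT hexamers and an NF-kB consensus match, 165 bp apart at the nearest. The strongest peak of the window scored 55.82 and held 4 TGTGGT hexamers. It lay at chr16:38442585-38443243, 16.1 kb upstream of Cd80 and 435 bp from the TSS of Gm17497. A weak peak with a score of 9.16 lay 3.48 kb upstream, nearest to Adprh, and another with a score of 7.2 lay beyond the gene, 99 bp from the TSS of 4930455C21Rik. The gene body of Cd80 had no peak.

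Icosl (ENSMUSG00000000732.7, chr10:77532105-77546000, plus strand) encodes the ligand of ICOS, a receptor of activated and follicular helper T cells. All 6 of its peaks lay downstream of the gene and none in it or upstream of it. They were centred between 3.81 kb and 47.6 kb past its 3′ end, and 5 of the 6 were nearest to the Icosl TSS. The strongest, at chr10:77557360-77558100, scored 34.2 (rank 2092) and held 4 TGTGGT hexamers, 1 of which was 2 bp from an NF-kB consensus match, as printed above. The others scored between 4.23, the lowest of the 40 peaks, and 18.95. The peak with a score of 14.2, 33.2 kb past the gene, also held both motifs, 132 bp apart. The window also contains Aire and Dnmt3l.

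The PD-1 ligand genes Cd274 and Pdcd1lg2 lie side by side on chromosome 19, and their windows shared 4 peaks. Cd274 (ENSMUSG00000016496.7, chr19:29441945-29462585, plus strand) encodes PD-L1, the broadly inducible ligand of PD-1, and Pdcd1lg2 (ENSMUSG00000016498.9, chr19:29485409-29545647, plus strand) encodes PD-L2, which is largely restricted to DC, macrophages and some B cells. The strong peaks were in Pdcd1lg2. One in intron 2 at chr19:29505325-29505999 scored 52.58 (rank 943), and one in intron 5 at chr19:29536929-29537412 scored 51.5 (rank 986). Neither held TGTGGT, and the first held TGCGGT 31 bp from its centre. Further peaks in Pdcd1lg2 lay in exon 5, with a score of 17.32, and in intron 5, with a score of 27.64.

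Within Cd274 the peaks were weaker. One in intron 3 scored 7.84 and one in intron 5 scored 8.49, below the list median of 12.1, and both held an NF-kB consensus match. A peak with a score of 18.95 lay 5557 bp upstream of Cd274 but 25 bp from the TSS of 5033414D02Rik. Past the 3′ end of Pdcd1lg2 were peaks with scores of 9.69 and 20.62, nearest to C030046E11Rik. Neither PD-1 ligand gene had a peak within 1 kb of its own TSS.

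Cd40 (ENSMUSG00000017652.8, chr2:164881127-164898448, plus strand) encodes the receptor through which helper T cells activate DC. It is the receptor in a list that otherwise consists mainly of ligands. A wide peak of 932 bp at chr2:164880474-164881405, with a score of 14.2, covered the Cd40 start, its centre 188 bp upstream of the TSS. It held an NF-kB consensus match 119 bp from its centre and TGTGGT 244 bp from it, outside the central 300 bp. The stronger peak of the window scored 30.41, lay 20.7 kb upstream and 89 bp from the TSS of Ncoa5, and held neither RUNX hexamer. The Cd40 body had no peak centre.

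Cd83 (ENSMUSG00000015396.2, chr13:43880476-43898499, plus strand) encodes a surface marker of mature DC that stabilises MHCII and CD86 on the cell. It had the densest group of peaks, 8 in 25.9 kb from 19.8 kb upstream of the gene to intron 2. Of the 15121 peaks, 10 (0.0661%) start a run of at least 8 within that distance, and the median peak starts a run of 1. Both the 8 peaks and the distance were taken from Cd83, whose own run is among the 10. This share is therefore a description and not a test. No other protein-coding gene lies in the window, and all 8 peaks were nearest to a Cd83 TSS. The peak at chr13:43873132-43874787, 6.52 kb upstream, was 1656 bp wide, the fourth-widest in the list, and scored 51.11 (rank 1018). Its great width was known when Cd83 was listed and is given as a description. It held 4 TGTGGT hexamers, none of them in its central 300 bp. Whether any of them lie in repeat sequence was not examined.

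Next in score at Cd83 were the peaks 9.68 kb upstream, at 33.24, and 5.71 kb downstream of the start in intron 2, at 29.56. The former held an NF-kB consensus match 38 bp from a TGTGGT. A peak over exon 1, 25 bp from the TSS, scored 7.2 and held an NF-kB consensus match 9 bp from its centre and TGCGGT 118 bp from it. The other peaks scored 9.16 and 7.84 upstream and 11.71 and 18.13 in intron 2. The weakest of the 8 peaks was thus at the start of the gene and the strongest upstream of it.

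The genes of the TNF ligand family had 2 or 3 peaks each, beside a median of 1 for all protein-coding genes. None lay in a gene body, as was also the case at Cd80, Cd40 and Icosl. Tnfsf4 (ENSMUSG00000026700.3, chr1:163325581-163348337, plus strand) encodes OX40 ligand, which sustains effector T cells. It had 2 peaks, both upstream in a window without another protein-coding gene. The farther, 44.3 kb from the start at chr1:163281050-163281460, scored 21.95 and held TGTGGT 6 bp from an NF-kB consensus match, as printed above. The nearer, at 19.7 kb, scored 9.62 and held TGTGGT too.

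Tnfsf9 (ENSMUSG00000035678.7, chr17:57244808-57247180, plus strand) encodes the ligand of 4-1BB, and Cd70 (ENSMUSG00000019489.7, chr17:57285420-57289200, minus strand) encodes the ligand of CD27. Both are short genes in a region with several others. The strongest peak of the Tnfsf9 window, with a score of 80.1 (rank 343), was the second-highest of the 40. It lay 44.9 kb upstream of Tnfsf9 at chr17:57199541-57200330 and 649 bp from the TSS of Slc25a23. A peak with a score of 24.94 lay 35.1 kb upstream, in an intron and nearest to Crb3. The windows of Tnfsf9 and Cd70 shared a peak with a score of 24.06 at chr17:57252257-57252892, 5394 bp past the 3′ end of Tnfsf9 and 32.8 kb past that of Cd70, with Gm11110 as the nearest TSS. The only other peak of the Cd70 window scored 9.84 and lay 33 bp from the TSS of Tnfsf14. None of the 4 peaks was thus nearest to either ligand gene.

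The 50 kb limit decided some of these counts. Among peaks inside the limit, the closest to it was that of Pdcd1lg2 at 49.0 kb, with a score of 18.95, which lay 25 bp from the TSS of 5033414D02Rik. Without this peak Pdcd1lg2 would have had 8 peaks, as many as Cd83. The Icosl peak farthest from the gene, at 47.6 kb with a score of 10.17, was inside, and the next, at 50.4 kb with a score of 6.57, was outside. At Cd86 the farthest peak inside lay at 45.9 kb with a score of 20.62, and the next outside at 51.5 kb with a score of 29.23. At Cd80 a peak with a score of 21.46 lay outside at 52.1 kb. The nearest peak outside was farther off at the other 7 genes, from 60.8 kb at Cd40 to 134 kb at Pdcd1lg2.

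For the RUNX hexamers the share in all peaks lay within the counting interval of the 40 peaks. The 300 bp around the centre held TGTGGT on either strand in 23 of 40 peaks (57.5%, Wilson 95% interval 42.2 to 71.5), beside 47.9% of all peaks and 22.4% of windows of the same length 10 kb downstream. TGCGGT was found in 6 (15%), beside 16.7% of all peaks. Among peaks farther than 1 kb from a TSS the shares with TGTGGT were 63.3% of 30 at the 10 genes and 60.5% of the list, and among all peaks near a TSS 27.3%. Median scores were 18.1 for the 23 peaks with the hexamer and 14.2 for the 17 without it, beside 13.4 and 11.2 in the list. Intervals cover counting error only, and neighbouring peaks of 1 gene are not independent.

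The NF-kB consensus, named here without letters because it is degenerate, was found in 10 of the 40 peaks (25%, 14.2 to 40.2), beside 7.95% of all peaks (7.53 to 8.39) and 2.79% of downstream windows. These peaks were the one upstream of Cd80, the one at the start of Cd40, those at the start of Cd83 and 9.68 kb upstream of it, 2 downstream of Icosl, both within Cd274, the farther one of Tnfsf4 and the one near Slc25a23 in the window of Tnfsf9. Of the 25 peaks nearest to a TSS of the 10 genes 9 held it (36%, 20.2 to 55.5), and of the 15 nearest to another gene 1 did. At the 16 other costimulation genes of the antigen-presenting cell described below it was found in 6 of 43 peaks (14.0%), and at 18 receptor genes of the T cell in 2 of 46 (4.35%). This motif was 1 of 6 searched and was singled out after its values were seen, and the difference from the list was not tested.

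The remaining motifs had the following shares. TGACGT, a motif of the DC factor zDC (Zbtb46), was in 6 peaks (15%, 7.06 to 29.1), beside 8.21% of all peaks. The AP-1 motif TGANTCA was in 3 (7.5%), beside 9.87%. GAGGAAG, the PU.1 motif, was in 6 (15%, 7.06 to 29.1), beside 26.9%. All were searched on both strands, and none of the 6 motifs contains another, though matches may overlap. The interval over the 40 peaks contained the list's share for each motif but NF-kB. These intervals treat neighbouring peaks of a gene as independent and are not a test of any motif.

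**Figure D4:**
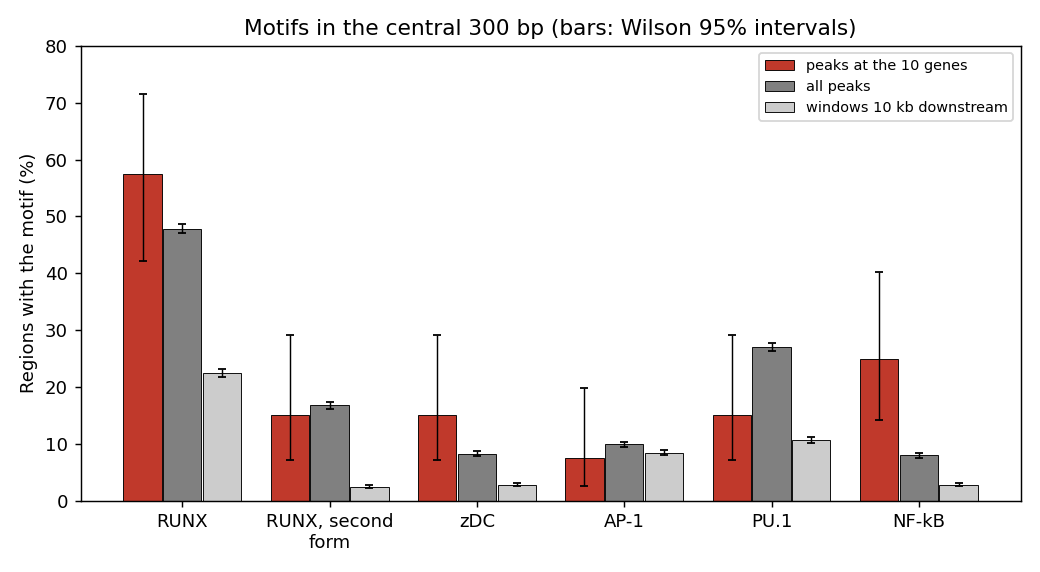
Percentage of regions (vertical axis) whose central 300 bp hold each motif (horizontal axis), for the 40 peaks at the 10 genes (red), all 15121 peaks (dark grey) and 14851 windows 10 kb downstream (light grey), with Wilson 95% intervals that cover counting error only. RUNX is TGTGGT and its second form TGCGGT; the red bar for NF-kB stands at 25%, above the 7.95% of all peaks, and for PU.1 at 15%, below the 26.9%.

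Other genes of the pathway stood between the 10 genes and all protein-coding genes in their median number of peaks. Of 16 further costimulation, coinhibition and adhesion genes of the antigen-presenting cell, 13 had a peak and 10 had at least 2, with a median of 2. Among all protein-coding genes 62.6% had a peak and 44.3% at least 2, with a median of 1. Their 43 distinct peaks had a median score of 9.84. Among these, the peak at Tnfsf14 also lay in the Cd70 window and so is counted at the 10 genes too. The most peaks were in the windows of Btnl2, a butyrophilin-like inhibitor of T cells, with 9, Cd276, which encodes B7-H3, with 7, and Nectin2, with 6. Of these, 1 at Btnl2, 3 at Cd276 and 1 at Nectin2 were nearest to the gene's own TSS. None was called at Tnfsf15, Tnfsf18 or Cd200. The 10 genes had a median of 4 peaks and a median score of 17.7, and a high number of peaks was not shown to be particular to them.

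Receptor genes of the T cell were examined as partners of the ligands. Of 18 such genes, 15 had a peak and 12 had at least 2, with a median of 2.5 peaks per gene. Among all protein-coding genes 62.6% had a peak and 44.3% at least 2. The median score was 17.3 over the 46 distinct peaks. At 11 of the 18 the gene's own TSS was the nearest for at least 1 peak, beside 35.4% of protein-coding genes. A peak within 1 kb of an own TSS was found at 3, beside 24.9%. Havcr2, which encodes TIM-3, had 7, and Cd27, the receptor of CD70, and Tnfrsf25 had 6 each. Of these, 5 at Havcr2, 2 at Cd27 and 0 at Tnfrsf25 were nearest to the gene's own TSS. No peak was called at Cd28, the receptor of CD80 and CD86, at Cd40lg, the ligand of CD40, or at Cd160. Ctla4, the inhibitory receptor of CD80 and CD86, had 3 peaks, and Icos had 3. Pdcd1, which encodes PD-1, had 2, Tnfrsf9, which encodes 4-1BB, had 5, and Tnfrsf4, which encodes OX40, had 1. Nearest to the gene's own TSS were 3 at Ctla4, 1 each at Icos, Pdcd1 and Tnfrsf9, and 0 at Tnfrsf4. Windows of genes known for their use in T cells thus held peaks in these sorted DC, not all of them nearest to those genes.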

How the data were processed

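Runx3 ChIP-seq was carried out on fixed, sonicated chromatin (1% formaldehyde, fragments of about 300 bp), with reads of 50 bp. Per the labels, CASAVA 1.8, Bowtie and MACS2 were used. The authors aligned reads uniquely to mm9 and deposited 1 list of pooled peaks with a score each, whose unit is not stated. Versions of the aligner and the caller, the threshold and the handling of duplicates are not given in the sources used here.

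Peaks were placed by their centre on GENCODE M1 genes of chromosomes 1 to 19, X and Y. Sequences came from NCBIM37, the same assembly. Positions are counted from 1. Intron and exon numbers refer to the longest coding transcript of a gene. The genes and both lists of pathway genes were chosen with earlier results of these data known. All 10 genes were named, with their strongest peaks, those nearest to their TSS, the highest-scoring, widest and shared peaks, the genes with the nearest TSS, and, of each pathway list, the 3 genes with the most peaks and those with none. Remaining peaks and the receptors of the ligands were added afterwards.

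Motifs were searched on both strands, and repeat sequence was not masked. Alternatives covered score, flank, placement, transcripts and searched window. Code was tested on simulated data. Computation used Python 3.11.15, numpy 2.4.6, pandas 2.3.3, scipy 1.17.1, pysam 0.24.0 and matplotlib 3.10.9.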

Additional observations from a re-analysis of the deposited data

How the results depend on the processing

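No paired analysis was possible because both replicates were pooled before peaks were called, and leaving out a replicate was not possible for the same reason. The number of distinct peaks, 40 as reported, depended on the rule. It was 24 with scores at or above the list median and 14 at or above the upper quartile. It was 12 in gene bodies alone, 21 with a 10 kb flank, 65 with a 100 kb flank, and 25 when the nearest protein-coding TSS had to be that of 1 of the 10 genes. The genes with a peak fell from 10 to 4 for gene bodies alone and numbered between 8 and 10 under the other 8 alternatives. The 3 genes with a peak within 1 kb of their TSS became 0 when peaks under the upper quartile were left out. The median score of 17.7 became 26.3 and 39.4 under the score filters, by their construction. The share with TGTGGT became 40% in the central 200 bp, where all peaks gave 41.8%. Of all protein-coding genes, 47.3% and 31.0% kept a peak under the score filters, 23.2% in gene bodies, 43.4% with 10 kb and 72.1% with 100 kb. The share with the NF-kB consensus ranged from 17.5% to 36% over 5 alternatives chosen after seeing the data, beside 5.72% of all peaks in the central 200 bp and 10.3% in the whole peak. With regulatory domains drawn by basal regions and extension, 9 genes and 46 peaks were found, but counts per gene moved both ways. Cd83 rose from 8 to 21 peaks in a domain of 1108 kb, Cd80 and Cd274 fell from 4 to 2, Cd86 from 5 to 3, Cd40 and Cd70 from 2 to 1, and Tnfsf9 from 3 to 0, while Tnfsf4 went from 2 to 3, Icosl from 6 to 7 and Pdcd1lg2 from 9 to 8.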

Other observations

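Scores and widths of the 40 peaks rose together less closely than in the list, with Spearman's rho of 0.54 across the 40 peaks and 0.71 across all peaks, which share 1 call and are not independent. The 40 peaks held 48 TGTGGT hexamers, or 2.20 per kb, beside 1.82 per kb over all peaks. Their median GC content was 48.6%, beside 50.7%, and the median ratio of observed to expected CpG was 0.253, beside 0.316. Among receptor genes of the T cell, the highest peak score, 90.65, was in the window of Lag3, a gene chosen for mention after its value was seen. Of the 4 peaks in that window, 2 were nearest to the Lag3 TSS and none lay in the gene body. The gene nearest to the highest-scoring peak is not given here, so its score cannot be credited to Lag3.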
